A study of Mus musculus with 12 samples.

Results

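The 8 genes described here are Pck1, G6pc, Fbp1, Cpt1a, Pdk4, Angptl4, Ppara and Ppargc1a, which belong to the response of mammalian tissues to fasting. They were picked by symbol out of the 22063 genes of the expression table as genes of glucose production, of fat burning and of the PPAR alpha program. They were proposed with results of these libraries already known, so their levels are given as a description without a test. Female C57BL6/J mice, bought at an age of 7 to 8 weeks, received 10 Gy to the whole body in the LL or HH mode. The paper defines the LL mode as low in both mean and instantaneous dose rate, and the HH mode as ultra-high in both. A clinical linear accelerator was used for the LL mode (LL_WBI) and a compact linear accelerator for the HH mode (HH_WBI). The intestine was taken 48 h after irradiation. Each mode had its own control group without irradiation (LL_Ctrl and HH_Ctrl), and each of the 4 groups held 3 libraries. Mode, accelerator and handling of the animals cannot be told apart in this design. Whether the 3 libraries of a group stand for 3 animals is not given in the sources used here, nor is it given which length of intestine was taken, when the animals last ate or at which hour the tissue was collected. The spread and the p-values therefore refer to the libraries, which may be technical repeats.

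During fasting, glucagon and glucocorticoids raise the transcription of the gluconeogenic enzymes, while insulin lowers it after a meal. Fatty acids released from fat stores activate the nuclear receptor PPAR alpha, which turns on genes for the import of fatty acids into mitochondria, for their oxidation and for the making of ketone bodies. Liver is the main site of these programs. The epithelium of the small intestine also expresses gluconeogenic enzymes and PPAR alpha, and it draws fatty acids from both the diet and the blood.

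The promoters of 7 of the 8 genes were found in a RefSeq table of mouse promoters (GRCm38.p6), each running from 250 bases before to 50 bases after the start of the gene. The 3 shown here belong to both genes that lay furthest apart between the control groups and to the coactivator gene. The capitals mark TGACG, the core of the cyclic AMP response element (CRE) through which glucagon signals reach a promoter, in Pck1 and Ppargc1a, and AGGTCA, the hexamer of which PPAR sites are built, in G6pc. All 3 matches lie on the opposite strand and so read as CGTCA or TGACCT.
Pck1 (chr2:173152823-173153122, plus strand): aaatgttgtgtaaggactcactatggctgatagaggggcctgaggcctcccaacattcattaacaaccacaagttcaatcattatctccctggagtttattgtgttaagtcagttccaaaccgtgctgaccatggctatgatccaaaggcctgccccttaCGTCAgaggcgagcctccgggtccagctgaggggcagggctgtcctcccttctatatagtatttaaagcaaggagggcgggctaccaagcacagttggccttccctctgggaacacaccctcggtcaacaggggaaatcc
G6pc (chr11:101367466-101367765, plus strand): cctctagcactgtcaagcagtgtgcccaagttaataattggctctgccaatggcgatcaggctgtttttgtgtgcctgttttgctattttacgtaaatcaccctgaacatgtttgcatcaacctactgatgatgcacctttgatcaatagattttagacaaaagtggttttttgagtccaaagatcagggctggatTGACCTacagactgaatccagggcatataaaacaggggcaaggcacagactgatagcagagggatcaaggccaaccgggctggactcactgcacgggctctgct
Ppargc1a (chr5:51567676-51567975, minus strand): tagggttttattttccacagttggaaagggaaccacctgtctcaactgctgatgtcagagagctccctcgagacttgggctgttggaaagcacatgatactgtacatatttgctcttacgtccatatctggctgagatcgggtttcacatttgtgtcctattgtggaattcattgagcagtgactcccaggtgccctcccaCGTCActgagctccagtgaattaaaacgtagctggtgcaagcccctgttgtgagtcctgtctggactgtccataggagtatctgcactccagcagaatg
The CRE core stood 90 bases before the start of Pck1 and 49 bases before that of Ppargc1a, and it also stood 222 bases before the start of Ppara. Searched on both strands, it was held by 3 of the 7 promoters and by 20.8% of 32851 mouse promoters of the same length. The AGGTCA hexamer stood 54 bases before the start of G6pc and 94 bases before that of Cpt1a, 2 of the 7 promoters against 16.3% of all. A pair of such hexamers with 1 base between them, the form that PPAR binds with its partner RXR, was in 0 of the 7 promoters and in 0.0396% of all. A match is a string of letters and not a binding site.

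The tissue carried its labelled identity, since 8 of 8 markers of intestinal epithelium were above 1 FPKM in every library. The libraries differed in other RNA. Summed FPKM of 20 pancreatic acinar markers was 35600 in LL_WBI 1 and 134000 in LL_WBI 2, and between 66.1 and 409 in the other 10 libraries. The ileal gene Fabp6 stood at 82.2 FPKM in LL_WBI 3 and 586 FPKM in HH_WBI 3, and at 8.75 FPKM or less elsewhere. The sum of 4 ileal markers was 418 FPKM in LL_WBI 3, 453 in HH_Ctrl 3 and 1110 in HH_WBI 3, and 89.7 to 261 elsewhere. All 4 were above 1 FPKM in these libraries and in HH_WBI 1, so ileal RNA was not confined to irradiated tissue. The summed level of 8 markers of the proximal small intestine was 1090 to 1320 FPKM in the controls, 474 to 1020 FPKM in LL_WBI and 383 to 962 FPKM in HH_WBI. Colon markers summed to 119 to 149 FPKM in the controls, 6.02 to 54.1 FPKM in LL_WBI and 15.0 to 45.6 FPKM in HH_WBI, so this sum too was lower in every irradiated library. Of the 7 colon markers found, 4 were above 1 FPKM in each LL_Ctrl library and 2 to 3 in LL_WBI. Only 1 to 2 were in HH_Ctrl and 1 in HH_WBI, so the HH sums rested mainly on 1 or 2 genes. LL_WBI 3 stood apart in its sums of adipocyte markers (208 FPKM, 83.8 or less elsewhere) and of smooth muscle markers (1230 FPKM, 706 or less elsewhere). Some values of the members are therefore also given without a library concerned, with the pancreatic genes removed, or as a range over the alternatives run. The part of these differences in the results was not tested. In bulk tissue, fewer cells of a type and less RNA per cell cannot be told apart.

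Levels were read as FPKM, which correct for the length of the gene and for the reads in the library. Pck1 was the most abundant of the 8 genes in each group by its mean, and Ppara and Ppargc1a were the lowest in each. Averaged over the 3 libraries of LL_Ctrl, the order was Pck1 at 97.2 FPKM, Fbp1 at 49.1, Cpt1a at 41.3, G6pc at 34.3, Pdk4 at 33.7, Angptl4 at 33.1, Ppara at 10.8 and Ppargc1a at 10.3. Fbp1 and Cpt1a overlapped, as did G6pc, Pdk4 and Angptl4, and Ppara and Ppargc1a, while the other neighbours in this order were separate. In HH_Ctrl the order was Pck1 at 452 FPKM, G6pc at 213, Angptl4 at 124, Pdk4 at 41.0, Cpt1a at 40.7, Fbp1 at 36.8, Ppara at 9.63 and Ppargc1a at 7.43. There the leading 3 genes did not overlap one another, while Pdk4, Cpt1a and Fbp1 did, as did Ppara and Ppargc1a. In LL_WBI all neighbours in the order of means overlapped, from Pck1 at 46.85 FPKM over Cpt1a at 31.6, Angptl4 at 21.7, Fbp1 at 17.5, Pdk4 at 13.7, G6pc at 8.51 and Ppara at 7.145 to Ppargc1a at 4.745. In HH_WBI only G6pc at 74.05 FPKM and Cpt1a at 28.75 were separate neighbours, and Pck1 at 125.5 FPKM led again. Among all genes above 0 in a library, Pck1 ranked between the percentiles 83.9 and 99.1 over the 12 libraries, G6pc between 53.4 and 97.9, and Ppargc1a between 49.7 and 69.8.

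**Figure D1:**
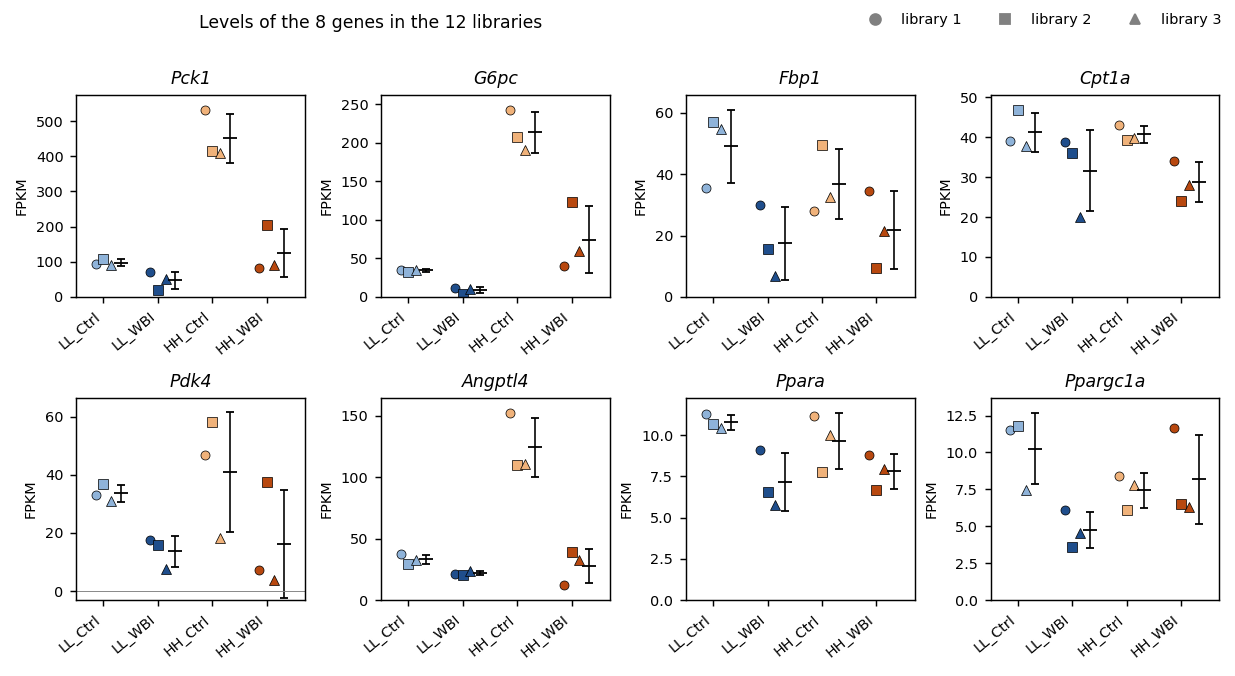
FPKM (y axis, starting at or below 0, its own range in each panel) of the 8 genes in the 4 groups (x axis), with circles, squares and triangles for libraries 1, 2 and 3 and bars for the mean and SD of n = 3. Pck1, G6pc and Angptl4 stand far higher in HH_Ctrl than in the other 3 groups. Cpt1a and Ppara stay within a narrow range, and Ppargc1a is lowest in LL_WBI.

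Pck1, the cytosolic phosphoenolpyruvate carboxykinase that commits carbon to glucose synthesis, was at 92.1, 109 and 90.8 FPKM in LL_Ctrl 1, 2 and 3. It was at 69.3, 20.3 and 51.0 FPKM in LL_WBI, at 532, 415 and 408 FPKM in HH_Ctrl, and at 82.4, 205 and 89.3 FPKM in HH_WBI. Each irradiated group lay below its own controls with no overlap, and 2 of the 3 HH_WBI libraries lay below all 3 LL_Ctrl libraries. On the log2 scale of FPKM + 0.1, used for every difference here, Pck1 stood 1.22 lower in LL_WBI than in LL_Ctrl, a difference of -1.22 (SE 0.42). The difference was -1.97 (SE 0.33) between HH_WBI and HH_Ctrl and 2.21 (SE 0.13) between HH_Ctrl and LL_Ctrl. LL_WBI 2, with the most pancreatic RNA, was the lowest library, and the LL difference was -0.70 (SE 0.17) without it. With the pancreatic genes taken out and the remainder rescaled it was -1.07 (SE 0.36).

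G6pc, the catalytic subunit of the glucose-6-phosphatase that releases free glucose, was at 35.4, 32.6 and 35.0 FPKM in LL_Ctrl. It was at 11.2, 4.33 and 10.0 FPKM in LL_WBI, at 243, 207 and 190.5 FPKM in HH_Ctrl, and at 40.4, 123 and 59.1 FPKM in HH_WBI. All 4 groups were separate from one another. The order was LL_WBI, LL_Ctrl, HH_WBI and HH_Ctrl, so that the irradiated HH tissue still held more G6pc RNA than the LL tissue that had not been irradiated. The mean of HH_Ctrl (213 ± 26.7 FPKM, SD, n = 3) was 6.22 times that of LL_Ctrl, a log2 difference of 2.63 (SE 0.10). After irradiation the difference was -2.11 (SE 0.34) in the LL mode and -1.68 (SE 0.36) in the HH mode. The LL difference was -1.96 (SE 0.27) with the pancreatic genes removed.

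Fbp1, the fructose-1,6-bisphosphatase of the same pathway, had another pattern. It was at 35.4, 57.1 and 54.8 FPKM in LL_Ctrl and at 30.1, 15.5 and 6.73 FPKM in LL_WBI. In HH_Ctrl it was at 28.0, 49.65 and 32.7 FPKM and in HH_WBI at 34.7, 9.28 and 21.4 FPKM. LL_WBI lay below LL_Ctrl without overlap, with a log2 difference of -1.70 (SE 0.50), whereas both HH groups overlapped (-0.90, SE 0.45), as did both control groups (-0.43, SE 0.25). The lowest LL_WBI library was LL_WBI 3, which had the highest ileal sum of its group, and without it the LL difference was -1.15 (SE 0.34). Without HH_WBI 2 the HH difference was -0.39 (SE 0.29), and without HH_WBI 1 it was -1.33 (SE 0.39).

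Cpt1a, the carnitine palmitoyltransferase at the outer mitochondrial membrane that admits long-chain fatty acids to oxidation, was among the steadiest of the 8 genes. It was at 39.1, 46.9 and 37.9 FPKM in LL_Ctrl, at 38.9, 36.0 and 19.9 FPKM in LL_WBI, at 43.1, 39.3 and 39.7 FPKM in HH_Ctrl, and at 34.1, 24.1 and 28.1 FPKM in HH_WBI. LL_WBI overlapped LL_Ctrl (-0.44, SE 0.27), HH_WBI lay below HH_Ctrl (-0.51, SE 0.14), and both control groups overlapped (-0.02, SE 0.10). LL_WBI 3 was the lowest of the 12 libraries, and the LL difference ran from -1.04 to -0.14 over 16 alternatives.

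Pdk4, the kinase that shuts pyruvate dehydrogenase and so spares glucose while fat is burnt, was at 33.0, 36.7 and 31.2 FPKM in LL_Ctrl and at 17.7, 15.9 and 7.63 FPKM in LL_WBI. These groups did not overlap, and the log2 difference was -1.37 (SE 0.31). In HH_Ctrl it was at 46.7, 58.0 and 18.2 FPKM and in HH_WBI at 7.29, 37.6 and 3.80 FPKM. HH_WBI 2 stood apart from the other irradiated HH libraries and overlapped its controls. The HH difference of -1.84 (SE 0.80) moved with the libraries taken, since it was -2.78 (SE 0.50) without HH_WBI 2 and -1.14 (SE 0.75) without HH_WBI 3.

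Angptl4, a secreted inhibitor of lipoprotein lipase and a PPAR target, was at 37.2, 29.5 and 32.5 FPKM in LL_Ctrl and at 21.0, 20.5 and 23.7 FPKM in LL_WBI. It was at 152, 110.0 and 111 FPKM in HH_Ctrl and at 12.4, 38.8 and 33.0 FPKM in HH_WBI. The HH_Ctrl libraries were higher than all the others, and the irradiated groups of both modes overlapped (0.21, SE 0.40). The log2 difference was -0.60 (SE 0.17) in the LL mode, -2.28 (SE 0.39) in the HH mode, and 1.90 (SE 0.15) between HH_Ctrl and LL_Ctrl, in which the mean was 3.76 times as high in HH_Ctrl. With the pancreatic genes removed the LL difference was -0.45 (SE 0.13).

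Among the regulators, Ppara, which encodes PPAR alpha itself, was at 11.3, 10.7 and 10.4 FPKM in LL_Ctrl and at 9.12, 6.56 and 5.755 FPKM in LL_WBI. It was at 11.1, 7.76 and 10.0 FPKM in HH_Ctrl and at 8.80, 6.68 and 7.925 FPKM in HH_WBI. LL_WBI lay below LL_Ctrl (-0.61, SE 0.20, and -0.89 to -0.44 over 16 alternatives). Both HH groups overlapped (-0.29, SE 0.17), as did both control groups (-0.18, SE 0.14). Ppargc1a, a coactivator that works with PPAR alpha and with the factors that drive gluconeogenic genes in liver, was at 11.5, 11.8 and 7.48 FPKM in LL_Ctrl and at 6.07, 3.61 and 4.56 FPKM in LL_WBI. It was at 8.37, 6.10 and 7.81 FPKM in HH_Ctrl and at 11.7, 6.51 and 6.33 FPKM in HH_WBI. LL_WBI was the lowest of the 4 groups for Ppargc1a and overlapped none of the other 3. The gap to HH_Ctrl was narrow, from 6.07 FPKM in LL_WBI 1 to 6.10 FPKM in HH_Ctrl 2. The difference of LL_WBI from LL_Ctrl was -1.10 (SE 0.26), and it ran from -1.31 to -0.66 over 16 alternatives. The HH difference was 0.09 (SE 0.25) and took either sign when a single library was left out or the scaling was changed.

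**Figure D2:**
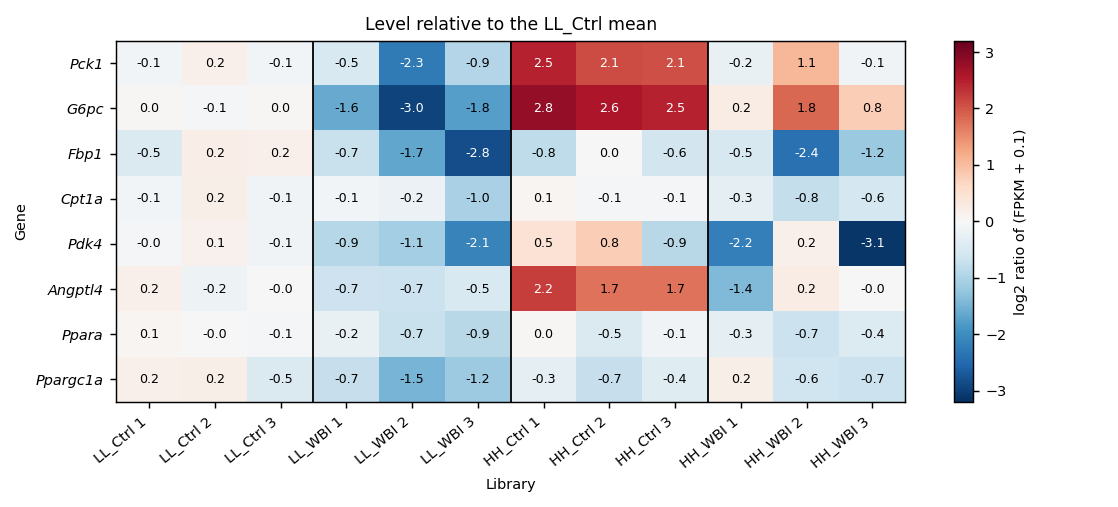
Each cell gives the log2 ratio of FPKM + 0.1 in a library (x axis) to the LL_Ctrl mean for a gene (y axis), red for higher and blue for lower, with vertical lines between the groups. The red block of Pck1, G6pc and Angptl4 is that of the 3 HH_Ctrl libraries.

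Set against each other, the comparisons had different members. In LL_WBI, 7 of the 8 genes were lower than in LL_Ctrl with no overlap, Cpt1a being the exception, where 19.0% of 12946 genes were lower in this way, and 0 were higher, where 9.90% of all genes were. None met the rule of an adjusted p under 0.05 with a log2 difference beyond 1, which 0.0772% of all genes met in that direction. The median difference of the 8 genes was -1.16, against -0.12 over all genes. In HH_WBI, 4 of the 8 (Pck1, G6pc, Cpt1a and Angptl4) were lower than in HH_Ctrl with no overlap, where 21.7% of all genes were, and Pck1, G6pc and Angptl4 met the call rule, where 2.38% of all genes met it on the lower side. Their median difference was -1.29, against 0.09 over all genes. The same 3 genes were higher in HH_Ctrl than in LL_Ctrl with no overlap and met the call rule, where 19.5% of all genes were higher without overlap and 2.31% were called higher. The other 5 overlapped between the control groups, so that 0 of the 8 lay lower in HH_Ctrl, where 38.2% of all genes did. Since the genes were chosen with these contrasts known, nothing is read from these counts.

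Both comparisons with controls depended on which controls were taken. With LL_Ctrl in place of HH_Ctrl, an exchange made, like its mirror, after seeing the data, HH_WBI stood 0.95 above the controls for G6pc and 0.24 above them for Pck1, and Angptl4 was at -0.39. With all 6 control libraries the differences were -0.36 for G6pc, -0.86 for Pck1 and -1.33 for Angptl4, and in neither case did any of the 8 genes meet the call rule. The LL comparison moved with the controls as well. All 6 controls gave -3.42 for G6pc, -2.32 for Pck1 and -1.55 for Angptl4. With HH_Ctrl in place of LL_Ctrl the differences were -4.74 for G6pc, -3.43 for Pck1 and -2.50 for Angptl4, and these 3 genes met the call rule, where none of the 8 did against LL_Ctrl. The set called also moved with single libraries. Without LL_WBI 1 the LL comparison held 4 genes by the call rule, namely G6pc, Fbp1, Pdk4 and Ppargc1a, and without LL_WBI 2 or LL_WBI 3 it held G6pc.

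**Figure D3:**
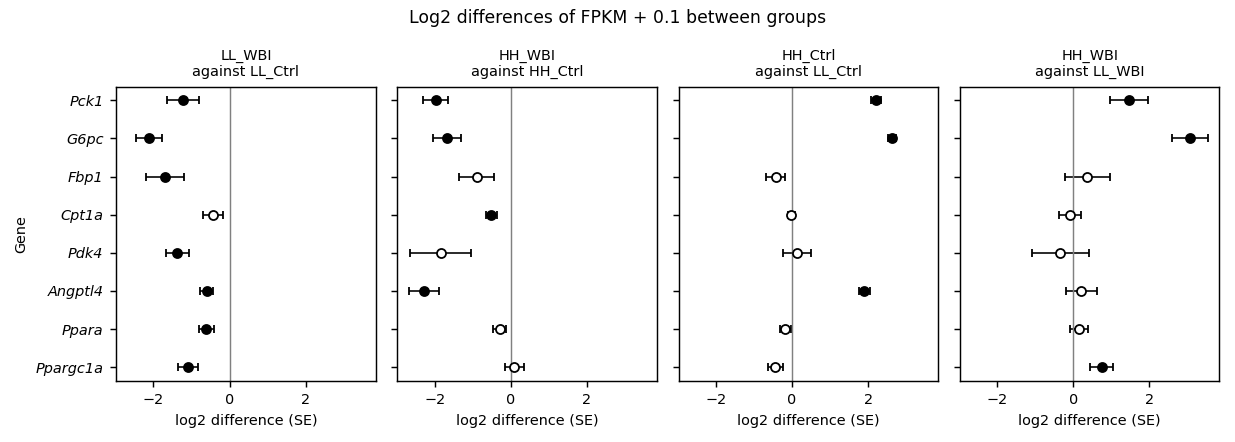
Log2 differences of FPKM + 0.1 (x axis, bars for 1 SE) of the 8 genes (y axis) in the 4 comparisons of 2 groups, with filled points where the libraries of the groups did not overlap. Pck1, G6pc and Angptl4 lie near -2 in HH_WBI against HH_Ctrl and near 2 in HH_Ctrl against LL_Ctrl.

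Directly between the irradiated groups, G6pc was higher in HH_WBI than in LL_WBI by 3.06 (SE 0.47), a ratio of means of 8.70. Pck1 was higher by 1.46 (SE 0.50) and Ppargc1a by 0.74 (SE 0.31), and these 3 did not overlap, where 8.42% of all genes were higher without overlap. The other 5 genes overlapped, with differences from -0.34 (SE 0.75) for Pdk4 to 0.37 (SE 0.60) for Fbp1, and 0 of the 8 lay lower in HH_WBI without overlap, where 8.64% of all genes did. None of 13049 genes was called in this comparison (0.00%). In alternatives G6pc met the call rule with all 12 libraries in one fit, without LL_WBI 3, and without LL_WBI 3 and HH_WBI 3. The response in the HH mode minus that in the LL mode, each against its own controls, was -1.68 (SE 0.47) for Angptl4 and 1.19 (SE 0.39) for Ppargc1a, and the others lay between -0.75 (SE 0.59) for Pck1 and 0.80 (SE 0.75) for Fbp1. None of the 8 was called for this difference, where 7.37% of all genes were (6.73% with a higher and 0.635% with a lower response in the HH mode). In alternatives Angptl4 was called without any single one of the HH_WBI libraries and without LL_WBI 3 and HH_WBI 3. It was also called with each library divided by its median ratio to the mean profile, and with the pancreatic genes removed. Ppargc1a was called with the replicate number as a block.

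The pathways around the 8 genes were followed in 7 lists with 149 further genes. The lists too were chosen with earlier results of these data known, so their shares are a description and nothing is read from them. In HH_WBI against HH_Ctrl, 7 of 140 tested genes rose and 12 fell (5.0% and 8.57%), where 10.0% of all genes were called higher and 2.38% lower. The median of the 140 differences was -0.35, against 0.09 over all genes. In HH_Ctrl against LL_Ctrl, 4 of 138 were called higher and 14 lower (2.90% and 10.1%), where 2.31% and 11.9% of all genes were. In LL_WBI against LL_Ctrl, 0 of 138 were called by limma and 52 had an unadjusted p under 0.05 (37.7%, against 18.3% of all genes), while 52 were lower with no overlap (37.7%, against 19.0% of all genes). In HH_WBI against LL_WBI, 0 of 138 were called and 19 had an unadjusted p under 0.05 (13.8%, against 11.2% of all genes). Dividing each library by its median ratio to the mean profile moved the median of all genes from 0.09 to -0.02 in the HH comparison and from -0.13 to 0.03 between the controls. It changed the split of the 18 calls between the controls to 7 higher and 11 lower. Over all genes it changed the split from 1280 higher and 304 lower to 1055 and 451 in the HH comparison, and from 291 and 1499 to 406 and 1089 between the controls.

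Of 26 other genes of gluconeogenesis and glycolysis, 2 fell in HH_WBI against HH_Ctrl and none rose. Pck2, the mitochondrial counterpart of Pck1, fell from a mean of 8.89 to 3.57 FPKM (-1.30, adjusted p = 0.00133). Slc37a4, the transporter that carries glucose-6-phosphate to the G6pc enzyme, fell from 92.5 to 39.5 FPKM (-1.23, adjusted p = 0.00284), and this call was lost with all 6 controls (-0.84, adjusted p = 0.0515) and with LL_Ctrl in place of HH_Ctrl (-0.45, adjusted p = 0.0699). Between the control groups 0 of the 26 were called. Slc37a4 was 0.78 higher in HH_Ctrl (adjusted p = 0.00400), the same side as G6pc but short of the fold threshold. In the LL mode Slc37a4 was at -0.99 and was not called.

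Among 9 genes of ketone body synthesis, transport and use, Oxct1, which opens the use of ketone bodies, rose in HH_WBI (limma with Benjamini-Hochberg adjustment, 1.26, adjusted p = 0.00153), as did the monocarboxylate carrier Slc16a7 (1.44, adjusted p = 0.0360). The call of Slc16a7 was lost without any single one of the HH_Ctrl libraries, at an adjusted p of 0.0574 to 0.102. With LL_Ctrl as the controls Oxct1 was at 0.26 (adjusted p = 0.277) and Slc16a7 at 0.40 (adjusted p = 0.462).

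Among 24 other genes of fatty acid oxidation, 3 fell and 2 rose in HH_WBI. Acaa2, the last thiolase of the mitochondrial spiral, fell from a mean of 179 to 54.75 FPKM (-1.76, adjusted p = 0.00392), and the isomerases Ech1 (-1.18, adjusted p = 0.000803) and Eci1 (-1.06) fell with it. The long-chain dehydrogenase Acadl rose from 40.5 to 94.8 FPKM (1.24, adjusted p = 0.00124), and Cpt1c, the form of the palmitoyltransferase known from brain, rose from 0.349 to 1.83 FPKM (2.07, adjusted p = 0.00239). Eci1 was at -0.97 without HH_WBI 2, short of the fold threshold. Acadl was lower in HH_Ctrl than in LL_Ctrl (-1.03), as were Etfdh (-1.18) and Etfa (-1.11), which pass electrons from the acyl-CoA dehydrogenases to the respiratory chain. Of 12 alternatives, 8 kept this call for Acadl, 11 for Etfa and 12 for Etfdh. With LL_Ctrl in place of HH_Ctrl, Acadl in HH_WBI was at 0.21 (adjusted p = 0.254), whereas Acaa2, Ech1 and Cpt1c kept their calls in all 15 alternatives run.

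Of 25 other targets of PPAR alpha tested in the HH mode, 5 fell and 1 rose. The falling genes included Retsat, the retinol saturase, from 71.7 to 26.4 FPKM (-1.42, adjusted p = 0.00214), and Acot2, a mitochondrial acyl-CoA thioesterase (-1.33, adjusted p = 0.00991). Fads2, a desaturase, was at -1.04 and lost its call without HH_Ctrl 2 or without HH_WBI 3. Fabp2, the intestinal fatty acid binding protein, was called higher (1.16, adjusted p = 0.0491), and that call held in only 5 of 15 alternatives. Between the controls 4 of 25 were lower in HH_Ctrl and 1 was higher (16.0% and 4.0%, where 11.9% and 2.31% of all genes were). Cd36, a fatty acid carrier, was at a mean of 15.0 FPKM in HH_Ctrl and 63.6 FPKM in LL_Ctrl (-2.19, adjusted p = 0.00237), and the peroxisomal genes Ehhadh (-1.18) and Acaa1b (-1.59) were lower too. Cyp4a14, an omega-hydroxylase of fatty acids, was higher in HH_Ctrl (1.88, adjusted p = 0.0243) at 0.752 to 2.17 FPKM, and lost this call without LL_Ctrl 1 (adjusted p = 0.0571). The called PPAR targets lay on both sides between the controls, as did the calls over all genes.

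Of 13 genes of the PDK and ANGPTL families and lipases, Pdp1, the phosphatase that reverses the action of the PDK kinases, rose in HH_WBI (1.67, adjusted p = 0.00280). The call was lost with LL_Ctrl as the controls (0.65, adjusted p = 0.0555). Pdp1 was also lower in HH_Ctrl than in LL_Ctrl (-1.02, short of the fold threshold without LL_Ctrl 2, HH_Ctrl 1 or HH_Ctrl 3). Pdha1, the subunit that those kinases phosphorylate, was lower in HH_Ctrl (-1.19, adjusted p = 0.000109). Of 29 receptors, coactivators and fasting signals, Klf15, a glucocorticoid-responsive factor that promotes gluconeogenesis in liver, was the 1 that fell in HH_WBI (-1.09, adjusted p = 0.00334, at -0.99 without HH_Ctrl 1). It was at -0.84 with all 6 controls and at -0.59 with LL_Ctrl as the controls, again short of the fold threshold. Between the controls, Pparg (-1.78, adjusted p = 0.000109), Hnf4g (-1.45) and the glucocorticoid receptor gene Nr3c1 (-1.18) were lower in HH_Ctrl, and Igfbp1, a liver-secreted protein of fasting, was higher (2.14, adjusted p = 0.00606) at only 0.628 to 1.18 FPKM. Of 14 lipogenic genes of the fed state, Scd2 rose in HH_WBI (1.27, adjusted p = 0.00299), at 0.96 with all 6 controls and 0.64 with LL_Ctrl as the controls, both short of the fold threshold. Between the controls, Me1 (-1.87, adjusted p = 0.00184) and Elovl6 (-1.18, adjusted p = 0.00130) were lower in HH_Ctrl, and Acacb, whose product makes the malonyl-CoA that holds back Cpt1a, was higher (1.25, adjusted p = 0.00376).

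**Figure D4:**
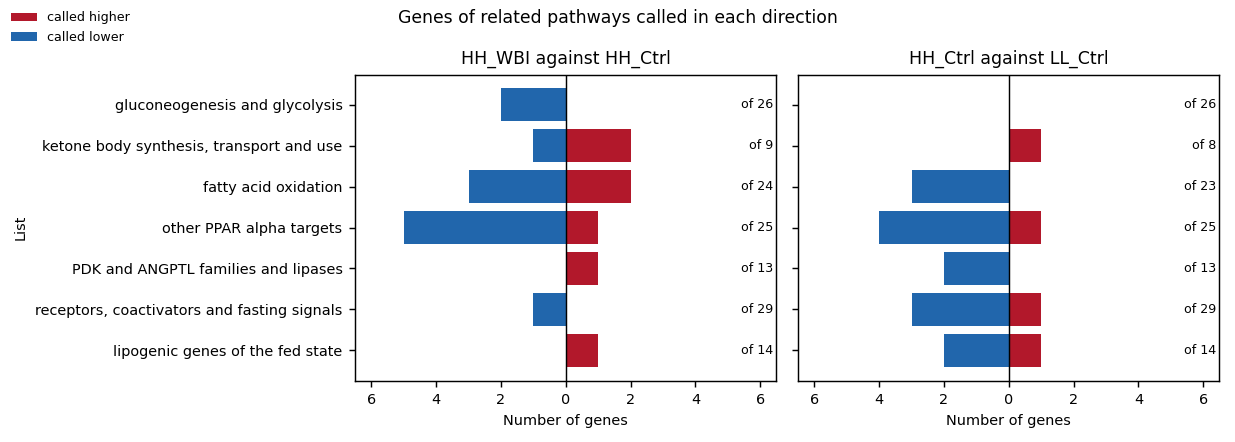
Number of genes called higher (red, to the right) or lower (blue, to the left) in each of the 7 lists (y axis), with the number tested at the right edge, for HH_WBI against HH_Ctrl and for HH_Ctrl against LL_Ctrl. In HH_WBI the PPAR alpha targets hold 5 lower and 1 higher call, and none of the 26 further genes of gluconeogenesis and glycolysis is called between the controls.

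Markers of other cells and signals moved beside the 3 genes that stood high in HH_Ctrl. The summed level of 11 hepatocyte markers was 62.9 FPKM or more in each HH_Ctrl library, with 8 to 11 of the 11 above 1 FPKM, and 13.1 to 31.8 FPKM in LL_Ctrl, with 5 to 7 above 1 FPKM. Alb, the defining hepatocyte gene, was at 25.6 to 37.1 FPKM in HH_Ctrl and at 3.21 to 9.81 FPKM in LL_Ctrl. Within HH_WBI the order of the libraries was opposite. HH_WBI 1 had the highest hepatocyte sum of all (131 FPKM, with Alb at 53.0 FPKM) and the lowest G6pc of its group (40.4 FPKM), while HH_WBI 2 had the lowest sum (7.53 FPKM) and the highest G6pc (123 FPKM). Igfbp1 and Cyp4a14 stood at 0.765 and 2.49 FPKM in HH_WBI 1 and at 0.028 and 0.050 FPKM in HH_WBI 2.

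The summed level of 7 glucocorticoid response genes was 257 to 281 FPKM in LL_Ctrl, 296 to 497 FPKM in LL_WBI, 593 to 1020 FPKM in HH_Ctrl and 355 to 746 FPKM in HH_WBI. Fkbp5, a sensitive gene of this response, was at 6.29 to 10.6 FPKM in LL_Ctrl and at 52.5 to 78.4 FPKM in HH_Ctrl. Enterocyte markers were at 10000 FPKM in sum in LL_WBI 2 and LL_WBI 3 and between 14500 and 22300 FPKM in the other libraries. The highest sum was that of HH_WBI 2. Within HH_WBI, this library had the highest Pck1, G6pc, Pdk4 and Angptl4. It also had the lowest Fbp1, Cpt1a and Ppara, while Ppargc1a lay between the other libraries of the group. Macrophage markers summed to 6.97 to 14.7 FPKM in HH_Ctrl and to 59.0 FPKM or more in the other 3 groups. The part of these markers in the levels of the 8 genes was not tested.

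**Figure D5:**
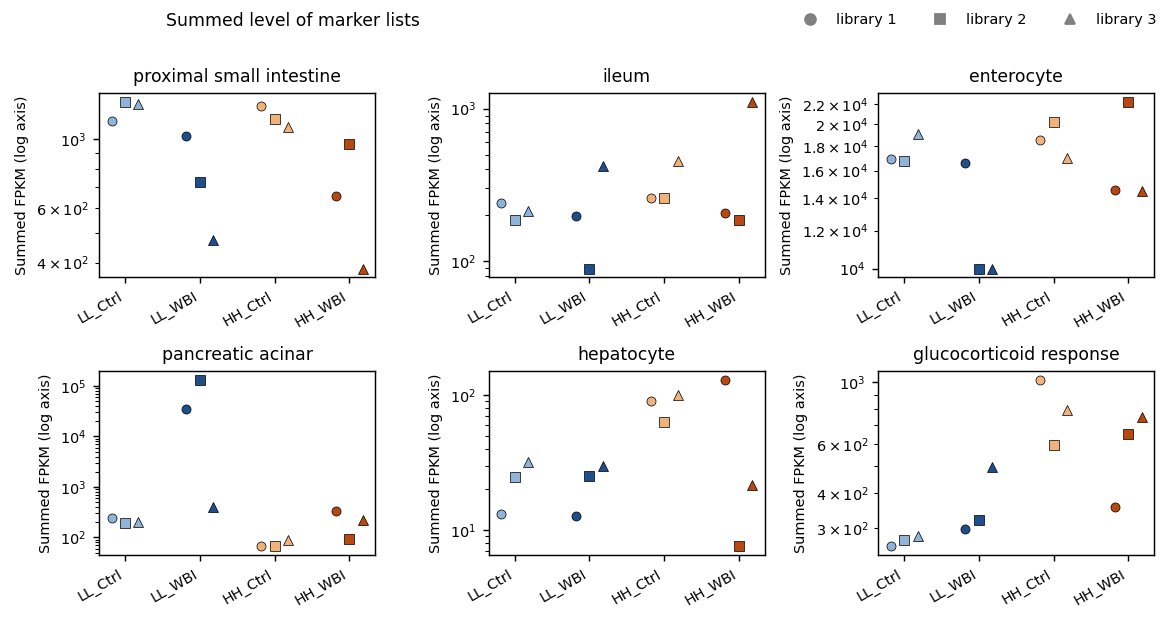
Summed FPKM (log axis) of 6 marker lists in the 4 groups (x axis), with circles, squares and triangles for libraries 1, 2 and 3. Hepatocyte and glucocorticoid response sums are higher in HH_Ctrl than in LL_Ctrl, and pancreatic sums are high in LL_WBI 1 and LL_WBI 2 only.

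The genes whose profile over the 12 libraries was most like that of each member were found among 12921 genes by the root mean square difference of centred log2 levels. For Pck1 and for Angptl4 the nearest was Prodh, the proline dehydrogenase, at 0.417 and 0.460. For G6pc it was the cytochrome P450 gene Cyp3a44 at 0.488. For Pdk4 the nearest were Xylt1 at 0.539 and Adh6a at 0.565, and for Fbp1 Celf5 at 0.480 and Lrrc61 at 0.513. The steadier genes had nearer neighbours, with Acad10 at 0.107 from Cpt1a, Trappc10 at 0.129 and Ppard at 0.134 from Ppara, and Syne2 at 0.235 and Tet3 at 0.243 from Ppargc1a. Among the 8 genes, the nearest pair was Cpt1a and Ppara at 0.205, and Pck1 and G6pc lay at 0.623 from each other.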

How the data were processed

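Intestinal RNA of 12 libraries in 4 groups of 3 was analysed from a table of FPKM per gene deposited by the authors, who give StringTie v1.3.1 as the source of the FPKM. The submitters' processing notes list 1 aligner, Bowtie 0.12.2, and as builds GRCm39, mm39 and mm8, giving no role for any of them. The labels and the methods differ on how ribosomal RNA was avoided, which was not settled here. Depth is unknown, so no counting intervals are given, and precision rests on the spread of 3 libraries. FPKM summed to 532489 to 620029 per library.

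Genes averaging 0.5 FPKM or more across the libraries of a comparison entered limma 3.58.1 (R 4.3.3, variance trend), run on log2(FPKM + 0.1), with Benjamini-Hochberg adjustment over all genes tested. A call needed an adjusted p under 0.05 and a log2 difference beyond 1, and for the difference of responses, fitted over all 12 libraries, an adjusted p under 0.05 alone. Fold changes on this scale understate those of low genes. Members, the 7 lists and the marker lists were chosen with earlier results of these data known. All 8 members passed the filter in every comparison, and from each list up to 3 called genes per direction with the smallest p were named, or up to 2 genes where none was called. Some genes that this rule names are not reported here. The hexamer AGGTCA alone was added to the motif search later. Alternatives changed the pseudocount to 1 FPKM, the filter, the scaling, the call rule, the libraries and the controls. The code was tested on simulated data.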

Additional observations from a re-analysis of the deposited data

Results flagged for a closer look

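None of the 8 genes was flagged. Of the further genes in the lists, 4 differed between the modes in their response to irradiation by limma's test of the difference (HH response minus LL response, Benjamini-Hochberg adjusted over all genes). Klf15 had a difference of -1.51 (SE 0.31, adjusted p = 0.0207), with group means of 4.16 FPKM in LL_Ctrl, 5.72 in LL_WBI, 5.94 in HH_Ctrl and 2.71 in HH_WBI. Nr3c1, the glucocorticoid receptor gene, had a difference of 1.33 (SE 0.25, adjusted p = 0.0175), with means of 24.8, 16.8, 10.9 and 18.3 FPKM in the same order. Acadl had a difference of 1.02 (SE 0.25, adjusted p = 0.0320), with means of 82.8, 96.3, 40.5 and 94.8 FPKM. Pdha1 had a difference of 0.83 (SE 0.22, adjusted p = 0.0477), with means of 105, 73.7, 46.1 and 57.3 FPKM.

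The calls moved with single libraries. Without LL_Ctrl 2 the adjusted p was 0.0621 for Klf15, 0.0552 for Nr3c1, 0.0881 for Acadl and 0.114 for Pdha1, and without LL_Ctrl 3 it was 0.0637, 0.0589, 0.0822 and 0.109. Klf15 also lost its call without HH_Ctrl 1 (adjusted p = 0.0503) or HH_WBI 1 (0.0527). Over 19 alternatives the call was kept in 17 for Nr3c1 (adjusted p from 0.00267 to 0.0589), 14 for Klf15 (0.00321 to 0.0637), 11 for Acadl (0.0218 to 0.0881) and 5 for Pdha1 (0.0218 to 0.117). The control groups differed in all 4 genes. Nr3c1, Acadl and Pdha1 were called lower in HH_Ctrl than in LL_Ctrl, though the call of Acadl was kept in only 8 of 12 alternatives. Klf15 was higher in HH_Ctrl without overlap (0.50, SE 0.16, adjusted p = 0.0357), short of the fold threshold. The response and the level of the controls cannot be told apart in these differences.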

How the results depend on the processing

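Of the 40 differences of the 8 genes, 27 kept their sign in every alternative run, and over all 608 alternative values 575 had the sign of the reported value. With LL_Ctrl in place of HH_Ctrl, an alternative chosen after seeing the data, G6pc was at 0.95 and Pck1 at 0.24 in HH_WBI. Depth is unknown, and with 3 libraries a group a single library can decide a call.

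The counts of called genes in the 7 lists moved as follows. In LL_WBI against LL_Ctrl, the count of 0 became 2 with all 12 libraries in one fit, 2 with all 6 controls, 17 with HH_Ctrl as the controls and 37 without LL_WBI 1 and LL_WBI 2. Leaving out 1 library at a time gave 0 to 15, the highest without LL_WBI 1. In HH_WBI against HH_Ctrl, the count of 19 became 12 with a pseudocount of 1 FPKM, 58 by adjusted p alone and 32 with LL_Ctrl as the controls, and 14 to 19 with 1 library left out. In HH_Ctrl against LL_Ctrl, the count of 18 became 63 by adjusted p alone, and 16 to 24 with 1 library left out. In HH_WBI against LL_WBI, the count of 0 became 1 with all 12 libraries in one fit and 2 without LL_WBI 3 and HH_WBI 3, and 0 to 7 with 1 library left out, the highest without LL_WBI 3. For the difference of responses, the count of 4 became 7 with median-ratio scaling (2 higher and 5 lower), 7 with the pancreatic genes removed (3 and 4), 16 without LL_WBI 3 and HH_WBI 3 and 14 without LL_WBI 1 and LL_WBI 2, and 0 (without LL_Ctrl 2 or LL_Ctrl 3) to 12 (without LL_WBI 3) with 1 library left out. The cause of these moves was not tested.

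Libraries of the same number did not deviate together in every pair of groups (correlations from -0.095 to 0.291), so the numbers were not taken as pairs. With the number as a replicate block the counts were 0, 21, 18, 0 and 4 in the order above.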
